A study of Mus musculus with 60 samples.

Results

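The 100 cDNA clones described here rose in mouse erythroleukemia cells treated with each of 3 chemical inducers. They were chosen for the highest smallest value from 6 to 36 h. They were taken from 22656 clones on the array. Members were chosen by the authors' deposited ratios, after over before treatment, on the log2 scale. A clone needed at least 3 values in each of 15 conditions, a mean of more than 0.3 log2 units over the 3 chemicals at 6 h, and a 36 h mean of at least 50 percent of the 6 h mean. Of the 14535 clones with enough values, 1589 passed at 6 h and 625 of these also passed at 36 h, among which 266 were above 0 in all 12 conditions at 6, 12, 24 and 36 h. The 625 clones were ranked by the smallest of these 12 values, and the first 100 were kept. The members ranked 96 to 100 had smallest values of 0.216 to 0.208, and the clones ranked 101 to 105, just outside, had 0.207 to 0.194, so the limit at rank 100 does not mark a gap.

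The cells were HD-MEL cells of a single line (T-3-Cl-2-0.fl), a highly differentiation-inducible mouse erythroleukemia line, treated in culture for 1, 6, 12, 24 or 36 h with 30 nM trichostatin A (TSA), 5 mM hexamethylene bisacetamide (HMBA) or 1.5 percent dimethyl sulfoxide (DMSO), a dose that 1 label field prints without its decimal point. RNA after treatment was hybridised together with RNA of the same line before treatment on 2-colour arrays, with 4 arrays in each of the 15 conditions. The labels call these 4 arrays technical replicates, so a condition is 1 RNA sample and the spread between its arrays is measurement error, not the spread between cultures. No time-matched untreated culture was labelled, so time in culture and treatment cannot be told apart, and the labels do not say how many extracts of untreated cells were made.

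Erythroleukemia cells are virus-transformed red cell precursors that stop dividing and turn on red cell genes when an inducer is added. TSA inhibits histone deacetylases, the enzymes that take acetyl groups off histones, and raises histone acetylation. HMBA is a hybrid polar compound and DMSO a polar solvent, both long used to make these cells mature. The sources used here pair none of the clone identifiers with a gene, so the members are described by rank and value, no role or sequence is given for any of them, and the cell type could not be checked against its marker genes. In such bulk RNA a changed share of cells expressing a gene and a changed amount of its RNA per cell cannot be told apart.

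Each array listed 16550 to 21087 clones, with a median intensity before treatment of 299 to 1050. Between arrays of the same condition and dye orientation the normalized log2 ratios of the clones had a median r of 0.54. The means of the opposite dye orientations of a condition correlated far less, with a median r of 0.20. At 1 h this correlation was negative with all 3 chemicals, at -0.10 with TSA, -0.20 with HMBA and -0.34 with DMSO. The HMBA 1 h arrays with treated RNA in Cy3 correlated with each other at r = -0.32, so the sign of the HMBA 1 h ratios remains unsettled. The calls per comparison, the member medians and most tests of single members that rest on HMBA 1 h are also given without it. At 1 h the calls and medians are also given with a sign turned. Counts above or below 0, counts at an unadjusted p, calls by plate range and calls in any comparison are given only with HMBA 1 h. All values from here on are log2 ratios, after over before treatment, from the deposited intensities after normalization within each slide. A condition value is the mean of the mean of replicates 1 and 2, with treated RNA in Cy5, and that of replicates 3 and 4, with treated RNA in Cy3. The number of arrays limits the precision of each value.

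At 6 h and later the median member was up 1.40-fold (DMSO at 6 h) to 2.01-fold (HMBA at 24 h), and HMBA gave the highest median at each of these times. In order of time, from 1 to 36 h, the member medians with TSA were 0.19, 0.65, 0.74, 0.69 and 0.58. With HMBA they were 0.26, 0.76, 0.93, 1.01 and 1.00, and with DMSO 0.14, 0.49, 0.65, 0.69 and 0.53. The median of all clones tested lay between -0.024 and 0.017 in these conditions. The rule used the sign and size of the deposited values at 6 to 36 h, so these levels describe the choice and carry no test. The rule limited the shape and the order of the chemicals through its 36 h bound and its ranking by the smallest value, and did not fix them. At 24 h the TSA and DMSO medians both corresponded to a 1.61-fold rise.

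**Figure D1:**
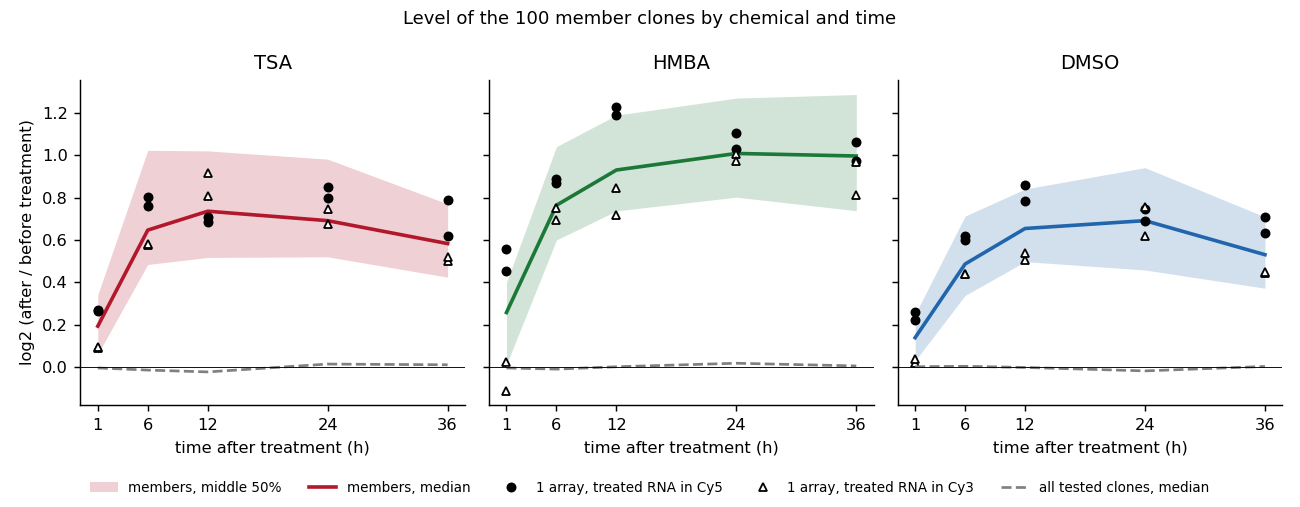
Log2 ratio after over before treatment (vertical axis) at 1, 6, 12, 24 and 36 h (horizontal axis) for the 100 members with TSA, HMBA and DMSO. Lines are member medians, bands hold the middle 50% of members, points are the member median on 1 array (filled for treated RNA in Cy5, open for Cy3), and dashed lines are the median of all clones tested. The member median was 1.01 with HMBA at 24 h, above the 0.69 seen with TSA and with DMSO at that time.

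Individual members spanned a wide range. The mean of a member's 12 late values was 0.45 in the lowest member, 0.75 in the median member and 1.98 in the highest, which are 1.37-fold, 1.69-fold and 3.95-fold rises. For 17 members this mean was at least 1. The highest condition value of any member was 3.30, a 9.83-fold rise, at 36 h with HMBA, and 9 members reached 2 or more in at least 1 late condition. At 24 h, 23 members with TSA, 52 with HMBA and 20 with DMSO had doubled or more.

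The single arrays behind these averages varied as follows, which describes the values that chose the members and supports nothing beyond the choice. On the 48 late arrays the median over the members ranged from 0.44 to 1.23, and it was above 0 on all 48. The median member was above 0 on 97.9 percent of the late arrays that listed it, against 50 percent for the median clone tested. For 31 members every listed late array was above 0, for 89 at least 90 percent were, and the lowest share was 78.3 percent. Leaving out any single array in turn left 88 members above 0 in all 12 late conditions, and the other 12 fell below 0 in at least 1 condition, the lowest to -0.27.

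The time course after 6 h differed in its average shape between chemicals. With TSA, 29 members peaked at 6 h, 25 at 12 h, 40 at 24 h and only 6 at the last time. With HMBA these counts were 15, 27, 30 and 28, and with DMSO 11, 35, 39 and 15. At 36 h the median member stood at 60.7 percent of its own peak with TSA, at 83.9 percent with HMBA and at 69.0 percent with DMSO. At 36 h, 33 members with TSA were at 50 percent of their peak or below, as were 7 with HMBA and 17 with DMSO. The median change between 24 and 36 h was -0.15 with TSA and -0.03 with HMBA, and it was -0.13 with DMSO. No condition has a repeat culture, so these differences in shape have no test. The rule bounded the 36 h mean over the chemicals and, through its ranking, every late value from below. The smallest of the 12 values fell at 6 h for 41 members, while 8 had it at 12 h, 19 at 24 h and 32 at the last time.

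**Figure D2:**
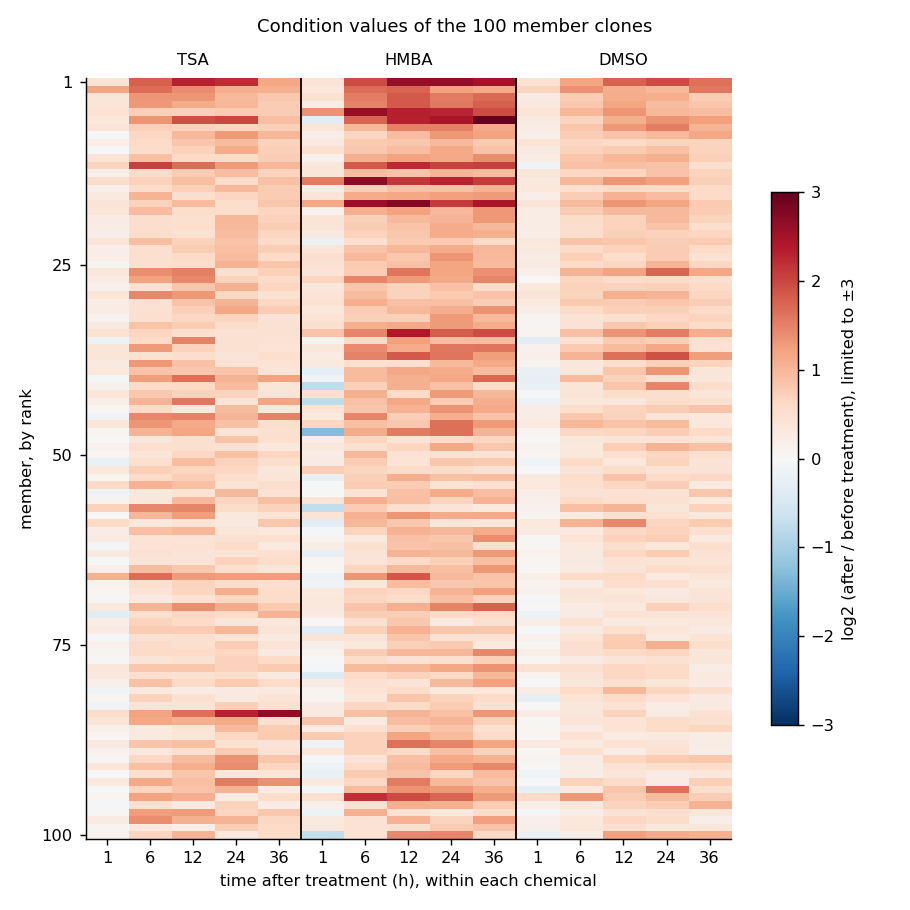
Condition values (colour, log2 ratio after over before treatment, limited to ±3) of the 100 members (rows, in order of rank) in the 15 conditions (columns, ordered by chemical and time). The 12 late columns are above 0 in every row, as follows from the choice by the deposited values, while the 1 h columns hold values on both sides of 0.

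The members ranked 1 and 2 show what a sustained rise looked like on single arrays. For H3055A12, ranked 1, the 4 TSA arrays gave 1.84, 2.16, 1.60 and 1.61 at 6 h and 1.24, 1.36, 1.10 and 0.97 at 36 h. The 4 HMBA arrays gave 2.23, 1.75, 1.85 and 2.00 at 6 h and 2.50, 2.86, 2.11 and 2.50 at 36 h. The 4 DMSO arrays gave 1.49, 1.01, 1.09 and 1.12 at 6 h and 1.77, 2.09, 1.26 and 1.44 at 36 h. At 36 h the TSA arrays of this clone all lay below the HMBA arrays, which in turn all lay above the DMSO arrays, while at 6 h the TSA and HMBA arrays overlapped. Its peak was 2.31 ± 0.35 at 12 h with TSA, 2.63 ± 0.064 at 24 h with HMBA and 1.95 ± 0.36 at 24 h with DMSO (SD over 4 technical arrays, n = 1 RNA sample). All 48 late arrays were above 0 for this clone. Its intensity before treatment, 1247 in the median array, was at the 66.9th percentile of the listed clones.

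H4038E06, ranked 2, held a lower and flatter level with larger array error. Its condition values at 6, 12, 24 and 36 h were 1.68, 1.43, 1.09 and 1.06 with TSA, 1.68, 1.74, 1.24 and 1.13 with HMBA and 1.38, 1.10, 1.00 and 1.58 with DMSO. It was a dimmer clone, with a median intensity before treatment of 293 and at the 29.5th percentile. On the 4 TSA arrays at 24 h it gave -0.54, 1.97, 1.19 and 1.73, and the first of these was the 1 late array of 47 listed on which it was not above 0. On the 4 TSA arrays at 1 h it gave 0.59, 0.73, 0.90 and 2.47, so that its condition value of 1.17 fell to 0.78 without replicate 4.

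**Figure D3:**
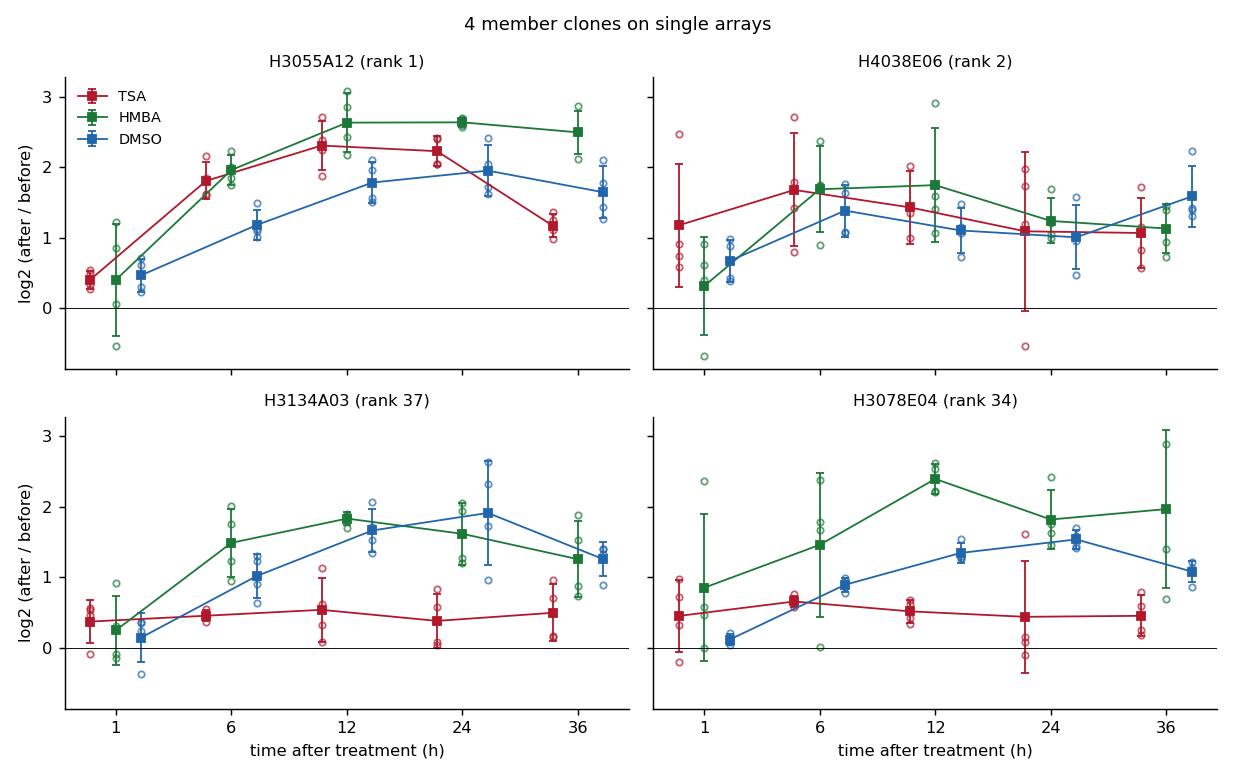
Log2 ratio after over before treatment (vertical axis) on each array (small points) and as the condition mean with the SD over its technical arrays (squares and bars) at 1, 6, 12, 24 and 36 h (equally spaced on the horizontal axis) for H3055A12, H4038E06, H3134A03 and H3078E04 with TSA, HMBA and DMSO. H3134A03 and H3078E04 stay between 0.38 and 0.66 with TSA from 6 h onward, below their HMBA and DMSO values.

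Differences between chemicals were tested at matched times with a limma model of time and chemical over the 15 condition values, fitted to all 14582 clones listed on at least 3 arrays of every condition. All 3 pairs of chemicals were compared, over 1, 6, 12, 24 and 36 h together, at 1 dose each, and p-values were adjusted by Benjamini-Hochberg over the 14582 clones for each pair. A call has an adjusted p below 0.05. Of the 5 times averaged, 4 chose the members, and the floor that the rule set on every late value limited how far the chemicals could differ and can favour a chemical whose values spread more widely. The counts of calls and the medians are therefore a description of the members and do not support an order of the chemicals. The comparisons share the before-treatment RNA and each chemical's arrays with one another. The slide layout also differed, since the HMBA and TSA arrays divided the plates between the 2 slides at another plate than the DMSO arrays did. Layout and chemical cannot be told apart where DMSO is compared with another chemical.

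HMBA minus DMSO was called higher for 17 members and lower for 0. The background over all clones tested was 2.24 percent higher and 0.494 percent lower. At an unadjusted p below 0.05 the counts were 53 higher and 3 lower, against 10.8 percent higher and 7.1 percent lower over all clones. The median difference of the members was 0.27 log2 units, with a range of -0.42 to 1.27 and 91 members above 0, against 0.0072 for all clones. The 95 percent half-width of a single member's difference had a median of 0.28. HMBA gave the highest late mean for 78 members, TSA for 17 and DMSO for 5, while DMSO gave the lowest for 68, TSA for 28 and HMBA for 4.

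The spread of all clones also differed between the chemicals and moved with this result. The late spread of all clones, as the median absolute deviation of the condition values, had a median of 0.283 in the TSA conditions, 0.322 in those of HMBA and 0.217 in those of DMSO. Each late member median was also divided by the spread of its own condition. The median of these ratios was 2.36 for TSA, 3.04 for HMBA and 2.46 for DMSO. When all arrays were scaled to the same spread, the calls of HMBA against DMSO dropped to 1, with a median difference of 0.11, while 2.13 percent of all clones were called. The calls by plate range were 11 of 61 members on plates H3001 to H3120, 4 of 20 on plates H3121 to H3159 and 2 of 19 on H4 plates. In the same order the median difference of all clones was 0.015, 0.057 and -0.022. The share of all clones called was not counted by plate range, so these counts have no background beside them. Without the unsettled HMBA 1 h condition, an alternative added after the data were seen, the calls were 26 and the median difference 0.33. Over all clones in both directions the share called was 2.74 percent, and 3.06 percent without HMBA 1 h. Leaving out 6 h gave 8 calls (0.857 percent of all clones), 12 h 4 (0.405 percent), and 24 h or 36 h 7 each (1.15 percent each), so the share over all clones fell too. Leaving out replicate 1, 2, 3 or 4 gave 9, 8, 13 or 7, against 1.77, 2.04, 1.62 and 1.69 percent of all clones. The part of spread and layout in the difference was not tested beyond these values.

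TSA against HMBA gave 2 members higher and 16 lower, against a background of 2.54 percent higher and 5.1 percent lower. At an unadjusted p below 0.05 the counts were 3 higher and 37 lower, against 11.2 percent higher and 13.3 percent lower over all clones. The median difference was -0.20 (range -1.52 to 0.80), with 78 members below 0, against 0.0057 for all clones. Scaling the arrays to the same spread left 6 calls, and leaving out HMBA 1 h gave 25 and a median of -0.24. The share called over all clones in both directions was 7.63 percent, also without HMBA 1 h, and 4.41 percent with scaled arrays. Without 12 h, 24 h or 36 h the calls were 8, 9 or 11 (2.41, 2.71 and 4.35 percent of all clones), and without replicate 1 or replicate 3 they were 9 (5.12 and 4.62 percent). The 16 members called lower had late means with a median of 0.72 with TSA and 1.42 with HMBA, and 0.94 with DMSO.

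TSA against DMSO gave 4 members higher and 2 lower, against a background of 2.76 percent higher and 1.87 percent lower, so the members' share of calls was close to that of all clones in both directions. At an unadjusted p below 0.05 the counts were 17 higher and 4 lower, against 9.55 percent higher and 8.68 percent lower over all clones. The median difference was 0.10 (range -0.75 to 1.29), with 65 members above 0, against 0.0036 for all clones. With the arrays scaled to the same spread this median was 0.02. Over all clones in both directions 4.63 percent were called. The calls were 11 without 1 h (6.51 percent of all clones), 1 without 6 h, 12 h or 24 h (1.06, 0.665 and 1.86 percent) and 3 without 36 h (3.08 percent). They were 2, 4, 3 or 3 without replicate 1, 2, 3 or 4, against 3.02, 3.87, 2.84 and 3.68 percent. In all, 28 members were called in at least 1 of the 3 comparisons and 72 in none. The share of all clones called in at least 1 comparison was not counted, so the 28 have no background beside them. The absence of a call for these 72 does not show that the chemicals acted alike, since a single member's difference had a 95 percent half-width of about 0.28.

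**Figure D4:**
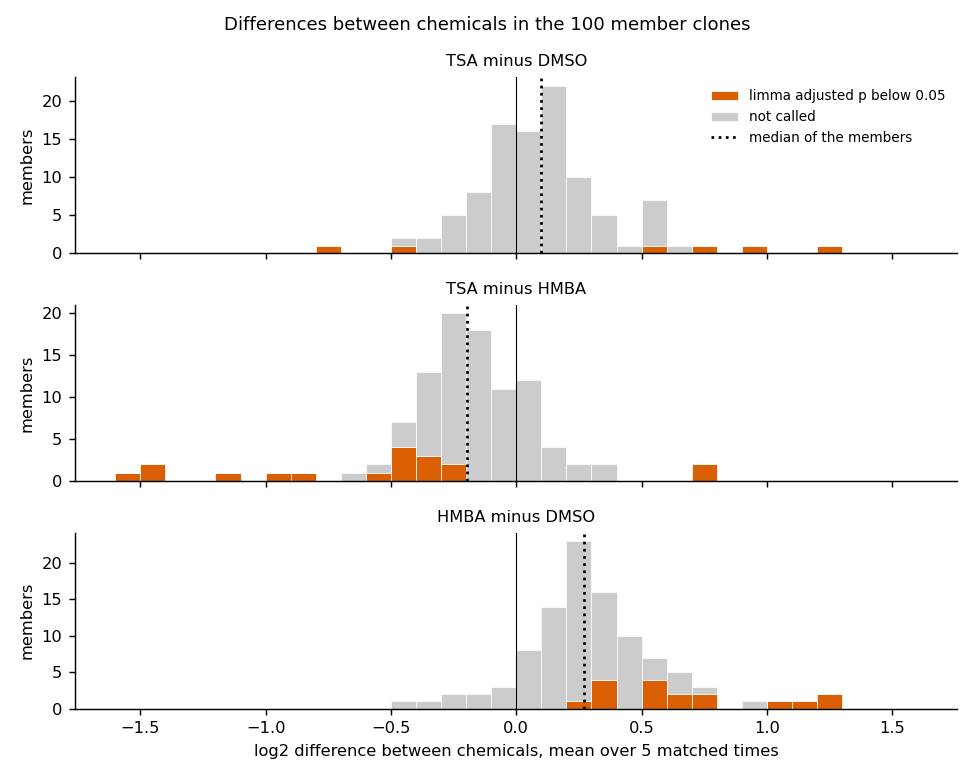
Number of members (vertical axis) by the difference between chemicals in log2 ratio, averaged over 5 matched times (horizontal axis), for TSA minus DMSO, TSA minus HMBA and HMBA minus DMSO. Orange bars are members with a limma adjusted p below 0.05, grey bars the others, and the dotted line is the members' median. Of the members, 91 lie above 0 in HMBA minus DMSO and 78 below 0 in TSA minus HMBA.

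For the named members the order of the chemicals differed. H3055A12 was 0.62 log2 units higher with HMBA than with DMSO (SE 0.16, 95 percent interval 0.28 to 0.96), just short of a call at a limma adjusted p of 0.05003, and it was called without HMBA 1 h (0.76, adjusted p = 0.0173). Its TSA minus HMBA difference was -0.44 (limma adjusted p = 0.103), and it too was called without HMBA 1 h (-0.58, adjusted p = 0.0358). For this clone HMBA minus DMSO stayed uncalled in 16 of 21 alternatives, and TSA minus HMBA in 17 of 21. After the array spreads were made equal, HMBA minus DMSO fell to 0.13 (limma adjusted p = 0.771). TSA minus HMBA was then -0.15 (limma adjusted p = 0.65). H3055A12 had a TSA minus DMSO difference of 0.18 (limma adjusted p = 0.623). H4038E06 differed by 0.14 in TSA minus DMSO, 0.07 in TSA minus HMBA and 0.07 in HMBA minus DMSO, with no call, and each of these changed sign under some alternatives. Without HMBA 1 h the last pair were -0.09 and 0.23, again with no call.

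H3134A03, ranked 37, was named because its TSA minus DMSO difference was the lowest of the members. It rose less with TSA than with HMBA or DMSO. Its test of TSA against DMSO therefore describes that choice, and its test against HMBA uses the same TSA arrays. On the 4 arrays at 12 h it gave 0.33, 0.07, 1.13 and 0.61 with TSA, 1.85, 1.70, 1.88 and 1.90 with HMBA, and 1.53, 1.34, 2.06 and 1.71 with DMSO. The TSA arrays lay below all HMBA and DMSO arrays at this time, and the HMBA and DMSO arrays overlapped. Its late mean was 0.47 with TSA, against 1.55 with HMBA and 1.46 with DMSO. TSA minus DMSO was -0.75 (SE 0.18, 95 percent interval -1.13 to -0.37, limma adjusted p = 0.0246) and TSA minus HMBA -0.84 (SE 0.18, limma adjusted p = 0.0103), while HMBA minus DMSO was 0.09 (adjusted p = 0.837). The TSA minus DMSO call ended without replicate 1 (-0.74, limma adjusted p = 0.0973). It also ended without each late time, at -0.80 without 6 h, -0.66 without 12 h, -0.56 without 24 h and -0.75 without 36 h, with limma adjusted p between 0.0729 and 0.17. The TSA minus HMBA call ended without 12 h (-0.73, limma adjusted p = 0.0779) and was kept without HMBA 1 h (-0.96, limma adjusted p = 0.00786). The arrays with treated RNA in Cy3 read higher than those in Cy5 for this clone at every late time with all 3 chemicals, which cancels in the mean of the orientations.

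H3078E04, ranked 34, was also named for its low TSA minus DMSO difference, so its low values with TSA follow in part from that choice. It had late means of 0.52 with TSA, 1.91 with HMBA and 1.21 with DMSO. On the 4 arrays at 12 h it gave 0.68, 0.43, 0.34 and 0.62 with TSA, 2.21, 2.62, 2.22 and 2.53 with HMBA, and 1.31, 1.27, 1.55 and 1.25 with DMSO. The arrays of the 3 chemicals did not overlap at that time, but the 4 arrays of a chemical are technical and show measurement error alone. They did overlap at other times. At 6 h the HMBA arrays gave 0.007, 1.78, 1.66 and 2.38, the first below all TSA and DMSO arrays. At 36 h the 3 listed HMBA arrays gave 2.89, 0.69 and 1.40. Of these, 0.69 lay below the highest TSA array (0.79) and all DMSO arrays. TSA minus HMBA was -1.20 (SE 0.19, limma adjusted p = 0.0017), a call that held in all 19 alternatives run, while TSA minus DMSO was -0.49 (adjusted p = 0.157) and HMBA minus DMSO 0.70 (adjusted p = 0.0543). Without HMBA 1 h, TSA minus HMBA was -1.29 (limma adjusted p = 0.00168) and HMBA minus DMSO 0.80, then a call (limma adjusted p = 0.0432). Without 1 h altogether, TSA minus DMSO was -0.70, also a call (limma adjusted p = 0.0233). However, TSA minus DMSO stayed uncalled in 18 of 19 alternatives and HMBA minus DMSO in 15 of 19. HMBA minus DMSO was 0.43 from the deposited ratios (limma adjusted p = 0.219) and 0.27 with arrays scaled to the same spread (limma adjusted p = 0.58). The HMBA value of this clone at 36 h was 1.97 here and 1.35 from the deposited ratios. Its TSA value of 0.44 at 24 h rested on 1 array, since replicate 3 gave 1.62 and the others 0.15, -0.11 and 0.08, and it was 0.054 without that array.

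A few further members, singled out after their values were seen, mark the ends of the range. The member ranked 84 gained most with TSA, with 0.56, 1.22, 1.65, 2.31 and 2.65 at 1, 6, 12, 24 and 36 h, so that it was still climbing at the last time. With HMBA it gave 0.30, 0.91, 1.01, 0.88 and 1.30, and with DMSO 0.24, 0.34, 0.67, 0.25 and 0.43. Its TSA minus DMSO difference was 1.29 (SE 0.22, limma adjusted p = 0.00368) and its TSA minus HMBA difference 0.80 (adjusted p = 0.0358), and without HMBA 1 h TSA minus HMBA was 0.81 and no longer called (limma adjusted p = 0.0582). The member ranked 66 was also higher with TSA than with DMSO (0.90, SE 0.21, limma adjusted p = 0.0202), at 1.25 with TSA and 0.29 with DMSO at 24 h. The member ranked 57 was higher with TSA than with HMBA (0.73, SE 0.17, limma adjusted p = 0.0141), also without HMBA 1 h (0.58, limma adjusted p = 0.0349).

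The largest differences in the opposite direction came from the members ranked 5, 14 and 17, which sat in 3 consecutive wells of 1 plate, counted row by row. Their late means were 0.74, 0.76 and 0.75 with TSA, 2.30, 2.30 and 2.46 with HMBA and 1.05, 1.06 and 1.06 with DMSO. TSA minus HMBA was -1.43, -1.44 and -1.52, with limma adjusted p of 1.79e-05, 4.23e-05 and 3.82e-05. HMBA minus DMSO was 1.19, 1.24 and 1.27, with limma adjusted p of 0.000156, 0.000221 and 0.000219. Already at 1 h their HMBA values were 1.34, 1.54 and 1.15, although the sign of that condition is unsettled. Without it TSA minus HMBA was -1.52, -1.49 and -1.68 and HMBA minus DMSO 1.28, 1.29 and 1.43, all still called. The sources used here do not say whether neighbouring wells hold clones of 1 gene or of several, so these 3 members may not be independent of one another.

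The 1 h values were not used by the rule and were tested on their own, as the mean of the 3 chemicals at 1 h against 0 in limma. No member was called (0 of 100 at a limma adjusted p below 0.05, lowest 0.139), against a background of 0.0617 percent higher and 0.0754 percent lower. At an unadjusted p below 0.05, 36 members were higher and 0 lower, against a background of 5.27 percent higher and 4.22 percent lower. With the spread taken from all 15 conditions in place of those at 1 h, 3 members were called, against 0.494 percent of all clones. The median 1 h value of the members was 0.19 (range -0.39 to 0.79), with 86 above 0, against 48.8 percent of all clones. The late values that chose the members may share the before-treatment RNA with the 1 h values, so the 2 sets of values are not fully independent.

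The 1 h values depended on the dye. Their median was 0.27 on the arrays with treated RNA in Cy5 and 0.032 on those in Cy3. By chemical, the Cy5 medians at 1 h were 0.26 with TSA, 0.49 with HMBA and 0.20 with DMSO, and the Cy3 medians were 0.088, 0.033 and 0.024. Of the 12 arrays at 1 h, 11 had a member median above 0, and the medians ranged from -0.11 to 0.56. Without HMBA 1 h the median was 0.16 and no member was called. With the sign of HMBA 1 h replicate 3 turned the median was 0.19, and with that of replicate 4 turned 0.15, with 0 calls in both. The HMBA 1 h member median itself was 0.26 as labelled, 0.33 with replicate 3 turned and 0.16 with replicate 4 turned. The part of the dye in the 1 h values was not tested. At 6 to 36 h, the times that chose the members, the medians lay between 0.61 and 1.17 in Cy5 and between 0.46 and 0.97 in Cy3.

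At 1 h H3055A12 stood at 0.42 (limma adjusted p = 0.139) and H4038E06 at 0.72 (limma adjusted p = 0.177), with no call for either. Without HMBA 1 h they stood at 0.43 (limma adjusted p = 0.135) and 0.92 (limma adjusted p = 0.105). H3055A12 had condition values of 0.40 with TSA, 0.40 with HMBA and 0.46 with DMSO at 1 h, and 11 of its 12 arrays at that time were above 0. Its 4 HMBA arrays at 1 h gave 0.86, 1.22, -0.53 and 0.05, which split by dye. Its DMSO arrays at 1 h, at 0.62, 0.71, 0.23 and 0.30, were all above 0 and were higher in Cy5.

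The members were spread over the clone plates. They came from 78 of 238 plates and 93 of 1893 plate rows, with at most 5 on a plate and 3 in a row, and 6 rows held 2 or more. The other clones in a member's plate row had a late median of 0.036 over the members, from -0.32 to 0.31. After the plate-row medians were removed, 92 members had all 12 late values above 0, with a median late mean of 0.66. These late values chose the members, so that the members exceed their row mates follows from the choice, and the part of the plate row was not tested. The H4 plates held 19 members, while 34.7 percent of the clones tested came from them.

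Members were somewhat brighter than the median clone tested before treatment. Their intensity before treatment lay at the 65.4th percentile of its array in the median member, with quartiles of 49.4 and 81.6, against 59.4 for the median clone tested. At 6 to 36 h the median member was at the 74.1st percentile of the after-treatment intensities, against 59.0 for the median clone tested, which restates the choice by the ratio. The full range before treatment was the 15.4th to the 97.4th percentile, so the list holds dim and bright clones alike. The dimmer clone H4038E06 above had an SD of up to 1.13 over the 4 arrays of a late condition, against at most 0.41 for H3055A12, while H3078E04, near the middle of the intensities, reached 1.12 over 3 listed arrays.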

How the data were processed

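The arrays measured RNA after against RNA before treatment. The authors deposited a table of linear ratios, after over before treatment, for 22656 clones, and spot intensities on a linear scale for both slides of each of 60 arrays, per the file headers. How spots were scanned, flagged, background-corrected or centred is not stated in the labels or file headers. The direction of the ratios was settled against the intensities (r per array 0.953 to 0.999, median ratio 0.924 to 1.07).

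The members were taken from the deposited ratios. For all tests the intensities were corrected with normexp (offset 50) and normalized by loess (span 0.3) per slide in limma 3.58.1 (R 4.3.3). The 4 technical arrays of a condition gave 1 value, the mean of its dye orientations, so each fit rests on the 15 condition values (or 3 at 1 h), and p-values measure the spread of conditions around the model, not that between cultures. Clones listed on at least 3 arrays of every condition were tested (14582). The limma fits used eBayes with the prior spread as a trend on mean log2 intensity, a reading of the planned trend settled after the files were seen, and were tested on simulated data.

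The members, lists, rule for named clones and tests were chosen with earlier results of these data known. With no table that pairs clones with genes (0 of 22656 identifiers matched), the gene and marker lists could not be tested, and the rule named the members ranked 1 and 2 and those with the 2 lowest TSA minus DMSO differences. Alternatives covered the background correction, normalization, source of the ratios, plate rows, array spread, dye orientation, listing filter, replicates, times and prior spread.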

Additional observations from a re-analysis of the deposited data

Results flagged for a closer look

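For the 4 named clones, each condition with 4 listed arrays was checked for an array that stood far from the other 3. In all, 73 groups of 4 arrays were tested, more than the named clones supply. Of these 6 were flagged, all of them in named clones. The share flagged among the named clones alone was therefore higher than 6 of 73, and chance flags about 1 in 20. For H4038E06, replicate 4 stood high with 2.47 at TSA 1 h, against 0.59 to 0.90 on the other arrays, and with 2.23 at DMSO 36 h, against 1.30 to 1.42. The condition values were 1.17 and 1.58 with these arrays, and 0.78 and 1.37 without them. For H3134A03, replicate 1 stood low with -0.086 at TSA 1 h, against 0.47 to 0.57, and with 0.89 at DMSO 36 h, against 1.32 to 1.41. Replicate 2 of the same clone stood low with -0.38 at DMSO 1 h, against 0.24 to 0.36. For H3078E04, replicate 3 stood high with 1.62 at TSA 24 h, against -0.11 to 0.15 on the others.

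Differences between chemicals that passed the limma test at an adjusted p below 0.05 numbered 6 members for TSA minus DMSO, 18 for TSA minus HMBA and 17 for HMBA minus DMSO. Among the named clones these were H3134A03, at -0.75 for TSA minus DMSO and -0.84 for TSA minus HMBA, and H3078E04, at -1.20 for TSA minus HMBA.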

How the results depend on the processing

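For the named clones no called difference reversed under the alternatives run, while differences near 0 that were not called did change sign (H4038E06 in all 3 comparisons, H3055A12 in TSA minus DMSO and H3134A03 in HMBA minus DMSO). For the other members directions were followed only without HMBA 1 h. On Cy5 arrays alone HMBA minus DMSO was called higher for 22 members and lower for 2. Over all clones the share called in both directions was then 8.64 percent, against 2.74 percent with both dyes. The counts of called members depended on many alternatives, and the cause was not tested. At 1 h, where 0 members were called, the additive model over all conditions called 3, against 0.494 percent of all clones. For TSA minus DMSO (6 members) the calls were 11 without 1 h, 1 without 6 h, 1 without 12 h, 1 without 24 h and 3 without 36 h. For TSA minus HMBA (18 members, 7.63 percent of all clones) they were 10 with plate-row medians removed (7.94 percent). They were 6 with arrays scaled to the same spread (4.41 percent) and 6 on Cy3 arrays alone (3.52 percent). Without 12 h, 24 h or 36 h they were 8, 9 or 11, with the shares of all clones given above. For HMBA minus DMSO (17 members, 2.74 percent of all clones) they were 10 with median centring in place of loess (1.49 percent). They were 10 with plate-row medians removed (2.96 percent) and 10 on Cy3 arrays alone (3.47 percent). With arrays scaled to the same spread 1 was left (2.13 percent). Without 6 h, 12 h, 24 h or 36 h they were 8, 4, 7 or 7. Leaving out 1 replicate number at a time gave 2 to 4, 9 to 17 and 7 to 13 calls in these 3 comparisons, and 0 at 1 h. Of the members, 88 to 96 stayed listed often enough for these 3 comparisons, and the part of this in the lower counts was not tested.

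Alternatives added after the data were seen gave 26 calls for HMBA minus DMSO without HMBA 1 h. With one prior spread for all clones the calls were 3 for TSA minus DMSO, 10 for TSA minus HMBA and 7 for HMBA minus DMSO. With the prior spread as a trend on the mean log2 ratio they were 1, 5 and 0 in limma, the last with 39 members at an unadjusted p below 0.05. The shares of all clones called with these other prior spreads are not given here, so the counts describe the members alone. Member medians kept their sign in every setting run, from 0.032 to 0.27 at 1 h, 0.02 to 0.11 for TSA minus DMSO, -0.26 to -0.08 for TSA minus HMBA and 0.11 to 0.33 for HMBA minus DMSO. For H3134A03 the TSA minus HMBA call ended with scaled arrays (-0.64, limma adjusted p = 0.0893), without 12 h and with the trend on the ratio. Its TSA minus DMSO call ended with one prior spread (limma adjusted p = 0.0804) and with the trend on the ratio (limma adjusted p = 0.153).

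The rule chose 95 of the 100 members again from the normalized intensities and 90 from arrays scaled to the same spread. It chose 64 with plate-row medians removed, 49 from Cy5 arrays alone, 35 from Cy3 arrays alone and 71 to 77 without 1 replicate number. Whether dim members vary more between arrays was not tested, and 1 RNA sample per condition limits every late value.

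The replicate numbers mark the dye orientation and do not pair the arrays. Deviations of same-numbered arrays from their condition means correlated at a median of 0.15 over 420 pairs (-0.16 to 0.55), and arrays of the same dye with another number at 0.15. A fit with the replicate number as a block and the condition as a random block called 20 members at 1 h, 13 for TSA minus DMSO, 30 for TSA minus HMBA and 39 for HMBA minus DMSO, against 3.14, 9.91, 14.1 and 7.93 percent of all clones. It counts technical arrays, with a correlation within conditions estimated at -0.066 at 1 h and 0.029 in the additive fit.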

Other observations

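Some members were neighbours on the clone plates. Of the 100 members, 10 lay in 4 runs of consecutive wells of a plate, counted row by row, 2 runs of 3 wells and 2 runs of 2. The profiles of members within a run correlated over the 15 conditions at r from 0.60 to 0.99, while all pairs of members had a median r of 0.62 (-0.48 to 0.99). These correlations describe shared RNA samples and arrays and carry no test. Besides the members ranked 5, 14 and 17, those ranked 11, 16 and 18 formed a run of 3 wells. Their late means were 0.70, 0.73 and 0.67 with TSA, 1.21, 1.20 and 1.15 with HMBA and 0.90, 0.82 and 0.87 with DMSO, and their profiles correlated at r from 0.94 to 0.99. They were chosen after their values were seen. Whether such neighbours carry the same transcript is not stated in the labels or files.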
